A study of Mus musculus with 5 samples.

Results

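Type I interferon-stimulated genes are described here in follicular regulatory T (Tfr) cells of mouse spleen that had or lacked the transcription factor C/EBP alpha. The set holds 48 genes, taken as every annotated gene whose symbol is on a list of genes known to be induced by type I interferon, among 57186 annotated gene IDs in the deposited tables. Each symbol matched 1 gene ID in each library, and each of the 48 passed the filter on low values (TPM of 1 or more in 2 or more libraries) that left 16254 genes for testing.

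Tfr cells restrain germinal centre responses from within B cell follicles. Live CD4+ spleen cells that carried Foxp3, CXCR5, PD-1 and ICOS were sorted 21 days after imiquimod, a drug that activates the RNA sensor TLR7 and was given to both groups. The WT group, 3 libraries, came from Foxp3-GFP reporter mice. The Cebpa_KO group, 2 libraries, came from Foxp3-Cre Cebpa-flox/flox mice, in which Cre expressed from Foxp3 deletes Cebpa in regulatory T cells. The Foxp3 alleles of the groups thus differ beside Cebpa, and no Cre-only control or untreated group was analysed here. Cells of more than 1 mouse were combined for each library, and what the tests see is therefore pool-to-pool spread. The sources used here give no age, strain or sex of the mice. The sum of Xist and 4 Y-linked genes, 162, 159.9 and 151 in WT, against 11.4 and 10.7 in Cebpa_KO, came from the Y-linked genes in WT and from Xist in Cebpa_KO, so sex and genotype cannot be told apart.

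Values are TPM, a level per transcript length, divided by a scale factor per library, and are called levels below. SE stands for the standard error of a difference. Differences are log2 fold changes of Cebpa_KO against WT on the log2(level + 1) scale, which understates the change of low genes. A gene is said to rise or fall where its Benjamini-Hochberg adjusted p over 16254 genes, from limma, a linear model that shares its estimate of spread across genes, was under 0.05. Aligned depth was 6.77 to 7.08 gigabases per library. Cebpa, the targeted gene, stood at 12.9, 17.7 and 12.8 in WT, against 0.317 and 0.550 in Cebpa_KO (log2 fold change -3.42, SE 0.20, limma adjusted p = 0.00371). All 6 listed sort and T cell markers were lower in both Cebpa_KO libraries than in any WT library, against 28% of all genes tested. Of the 6, 4 fell, against 9.82% of all genes tested. Foxp3 stood at 83, 107 and 105 in WT, against 6.74 and 5.58 in Cebpa_KO (limma adjusted p = 0.00115), Cxcr5 at 298, 278 and 252 in WT, against 181 and 141 in Cebpa_KO (0.0206), Icos at 343, 335 and 271 in WT, against 185 and 198 in Cebpa_KO (0.0207) and Cd3e at 1560.2, 1536 and 1768 in WT, against 1189 and 1220.4 in Cebpa_KO (0.0410). Cd4 and Pdcd1 did not pass (limma adjusted p = 0.0638 and 0.250). Foxp3 RNA was thus far lower in Cebpa_KO, although the cells of both groups were sorted on Foxp3. Whether the pools of the groups hold the same kind of cell was not tested. A list of 12 stress and immediate early genes summed to 1252, 1349.7 and 5663 in WT, against 6268 and 6709 in Cebpa_KO, so that WT replicate 3 lay near the Cebpa_KO libraries there. Of markers of other cells, 4 erythroid genes summed to 46.4, 33.6 and 378 in WT, against 1152 and 126 in Cebpa_KO, and 6 neutrophil genes to 14.8, 8.76 and 70.6 in WT, against 249.9 and 59.1 in Cebpa_KO. The 5 plasma cell genes summed to 1537, 954 and 9856 in WT, against 4839 and 1932 in Cebpa_KO. The 5 CD8 T and NK cell genes summed to 64.6, 60.1 and 52.2 in WT, against 27.4 and 26.1 in Cebpa_KO, without overlap of the groups, and 1 of them, Klrb1c, fell (limma adjusted p = 0.00550). The part of these cells in the differences below was not tested. In bulk RNA from sorted pools, a change in the share of cells that express a gene and a change in RNA per cell cannot be told apart.

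Type I interferons, the interferon alphas and interferon beta, bind a receptor of the chains IFNAR1 and IFNAR2. The kinases JAK1 and TYK2 then phosphorylate STAT factors, among them STAT2, which act with IRF9 in the complex ISGF3. ISGF3 binds the interferon-stimulated response element in the promoters of its target genes, and IRF factors can bind the same element. Imiquimod acts on the receptor through which plasmacytoid dendritic cells sense RNA and release interferon alpha. Many interferon-stimulated genes also respond to interferon gamma, so expression of the set does not by itself tell which interferon acted.

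In Cebpa_KO 17 of the 48 genes rose, 3 fell and 28 did not pass the test. Over all genes tested 9.93% rose and 9.82% fell, 19.7% in all. The set and the other lists were chosen with earlier results of these data known. The shares over all genes given beside them describe the background and do not test the lists. The 17 rises were Ifit1, Ifit3, Ifit3b, Isg15, Bst2, Oasl2, Oas2, Rtp4, Cmpk2, Dhx58, Ifih1, Mx1, Mx2, Xaf1, Isg20, Zbp1 and Ifi35, and the 3 falls were Ifi209, Sp100 and Samhd1. The median log2 fold change of the 48 genes was 0.33, against 0.01 over all genes tested, and 37 of 48 differences were above 0, as were 50.9% of all differences. In 24 of the 48 both Cebpa_KO libraries lay above all WT libraries, a pattern seen in 28.7% of all genes tested. In 3 both lay below, against 28% of all genes. In 27 of the 48 the groups did not overlap in one direction or the other, against 56.7% of all genes. In 8 the log2 fold change was at least 1, against 3.91% of all genes. The calls rested on both Cebpa_KO libraries, since with either of them left out none of the 48 passed in limma, although 22 without Cebpa_KO replicate 1 and 18 without Cebpa_KO replicate 2 had an unadjusted p under 0.05. Over all genes 0.0569% and 0.158% rose and fell without Cebpa_KO replicate 1, and 0.0314% and 0.113% without Cebpa_KO replicate 2. Without WT replicate 1, 14 of the 48 rose and 2 fell, beside 6.03% and 6.32% of all genes, and the calls of Mx2, Oas2, Ifih1, Zbp1 and Samhd1 ended. Without WT replicate 2, 6 rose and 2 fell, beside 2.74% and 2.44%, and of the 20 calls those of Isg15, Isg20, Oasl2, Ifih1, Bst2, Ifi209 and Sp100 held. Without WT replicate 3, 15 rose and 3 fell, beside 13.7% and 11.5%, and the calls of Oas2 and Xaf1 ended. With no filter on low values 6 rose and 2 fell, beside 2.43% and 1.64%. In the assembled loci, which were matched to genes by position, 11 rose and 3 fell, beside 7.39% and 7.02%. With the replicate number as a block 7 rose and 2 fell, beside 8.36% and 6.46%.

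**Figure D1:**
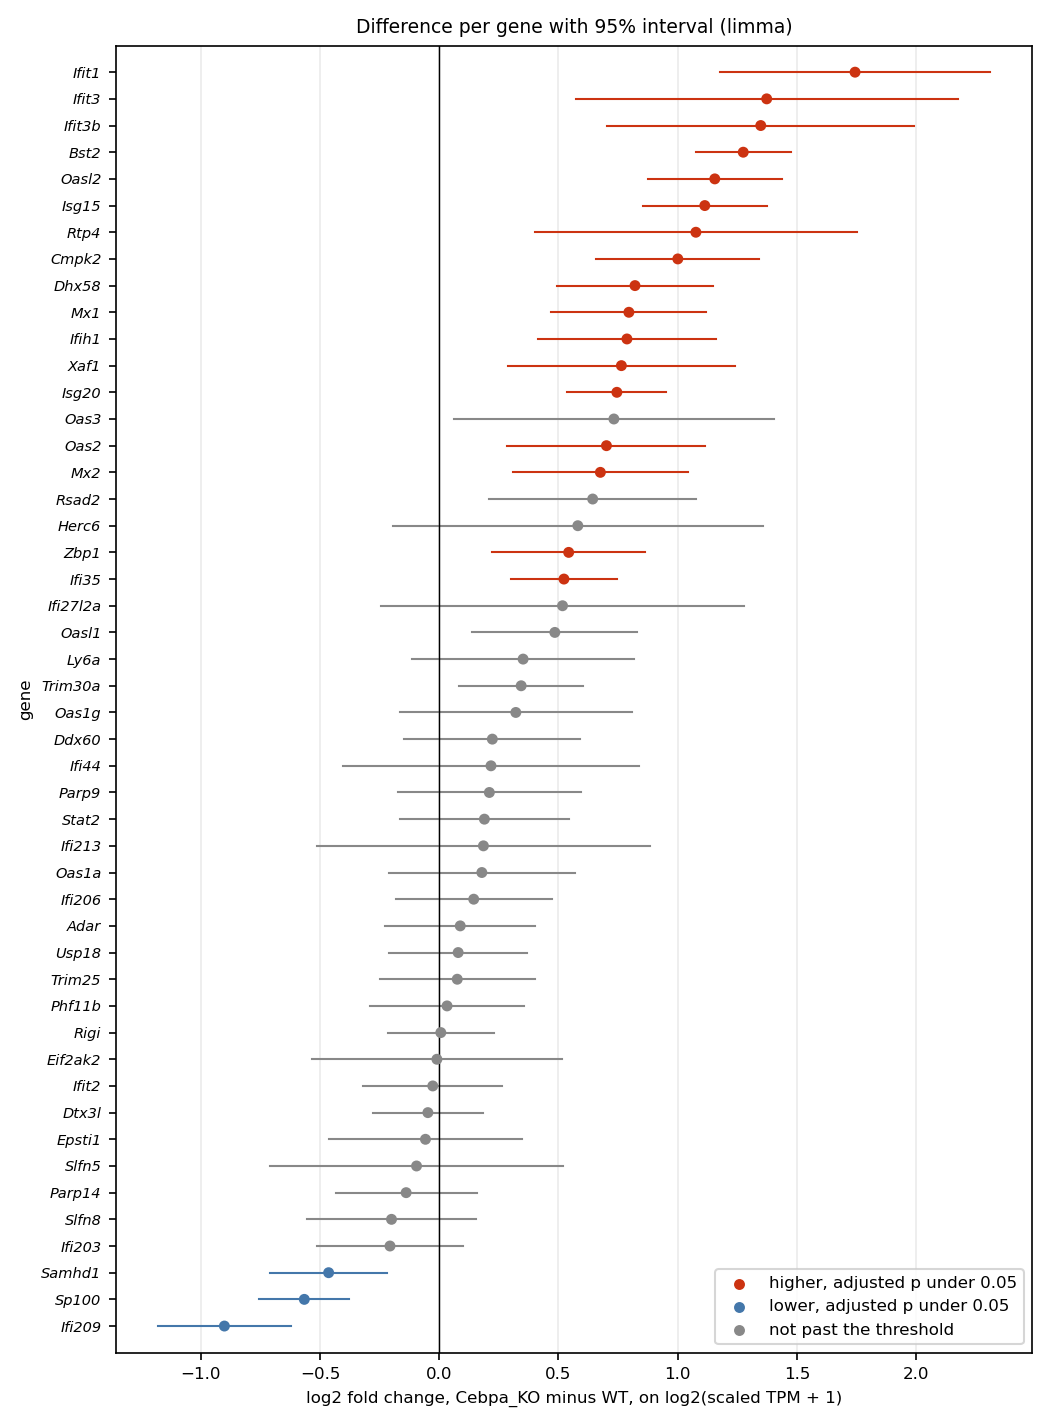
Log2 fold change of each of the 48 interferon-stimulated genes, Cebpa_KO minus WT on log2(scaled TPM + 1) (horizontal axis), with the 95% interval from limma as a line; genes are ordered by the difference (vertical axis). Red marks the 17 genes that rose, blue the 3 that fell and grey the 28 that did not pass. The differences run from -0.90 for Ifi209 to 1.74 for Ifit1.

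The levels covered nearly 3 orders of magnitude, and the highest genes were not the ones that rose. Ifi27l2a, a small interferon-inducible protein, and Ly6a, which encodes the surface antigen Sca-1, had the highest levels of the set in both groups. Ifi27l2a stood at 1949, 2058 and 1077 across the WT libraries, against 2197 and 2472 across those of Cebpa_KO. WT replicate 3 had the lowest value and both Cebpa_KO libraries lay above WT, but the difference did not pass (log2 fold change 0.52, SE 0.30, limma adjusted p = 0.269). Ly6a stood at 1973, 1640.2 and 1309.6 across the WT libraries, against 2003 and 2129 across those of Cebpa_KO (log2 fold change 0.35, SE 0.18, limma adjusted p = 0.226). Its groups did not overlap, although Cebpa_KO replicate 1 was close to WT replicate 1, and near copies in the Ly6 family make its reads uncertain. At the other end, Oas2 had a WT mean of 2.37 ± 0.186 (SD, n = 3) and Mx2 one of 2.78 ± 0.296 (SD, n = 3). In WT 11 of the 48 genes had a mean of at least 100 and 8 a mean under 10, with a median over genes of 39.1.

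**Figure D2:**
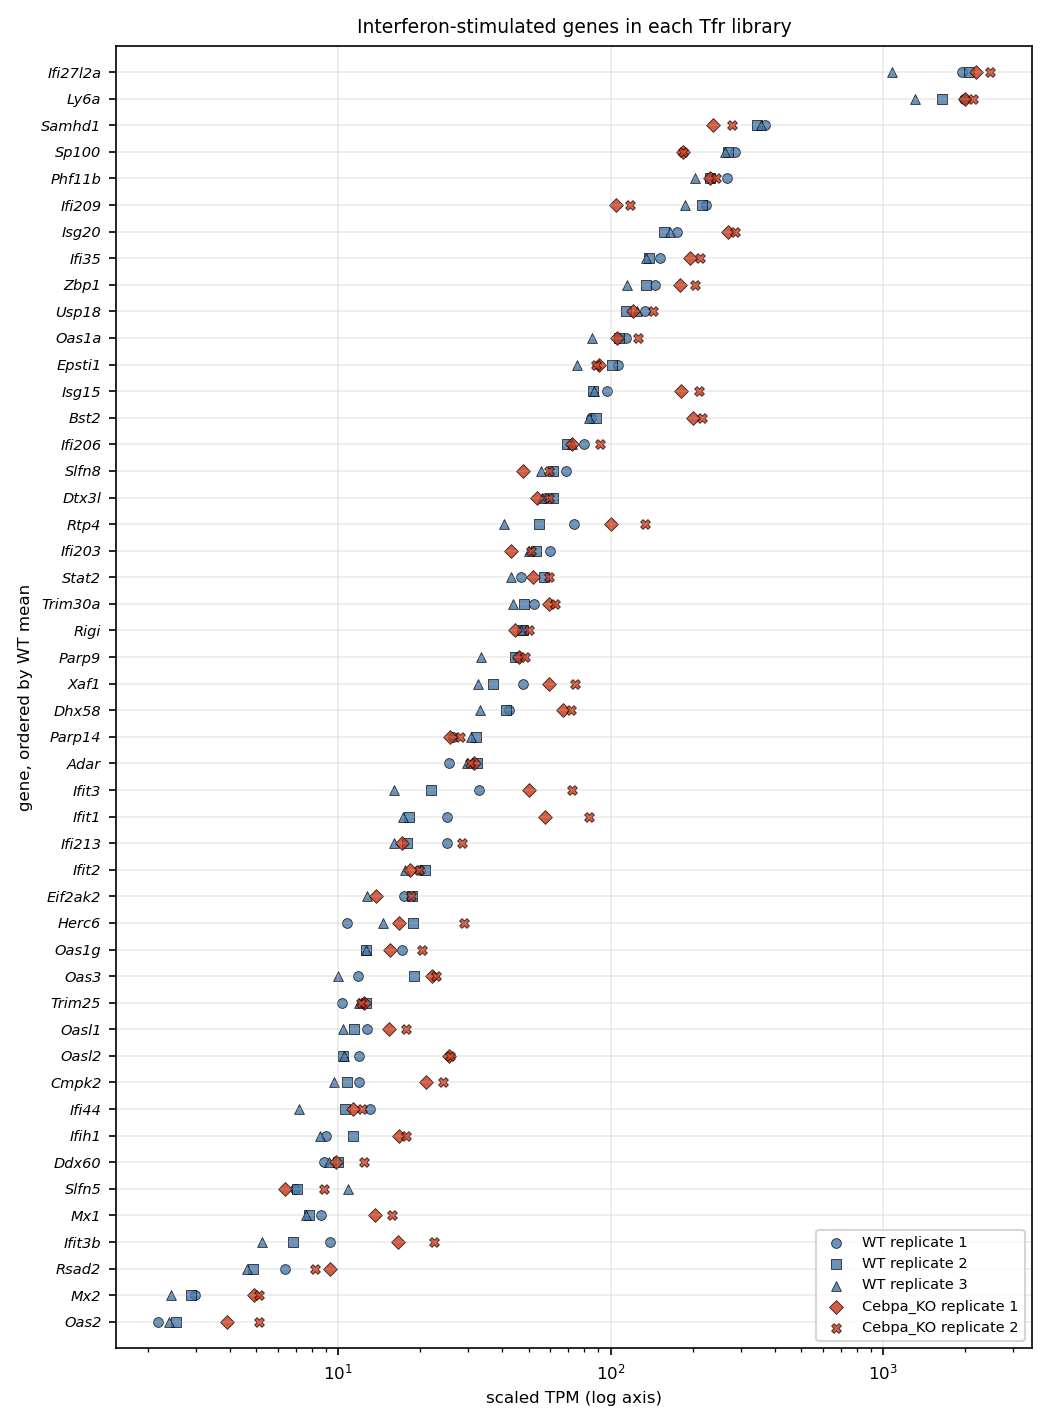
Scaled TPM of each of the 48 genes in each library (horizontal log axis), with genes ordered by their WT mean (vertical axis); each point is 1 library. The red Cebpa_KO points lie to the right of the blue WT points for genes such as Ifit1, Bst2, Isg15 and Oasl2, to the left for Ifi209, Sp100 and Samhd1, and among them for Rigi, Stat2 and Usp18.

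Windows of 250 bases before to 50 after the annotated start were taken from RefSeq (build GRCm38.p6, which is not the mm39 build of the deposited tables), and 37 of the 48 genes had one, Rigi under the older symbol Ddx58. Not matched were Mx1, Mx2, Oas2, Usp18, Ifi27l2a, Dhx58, Rtp4, Zbp1, Parp9, Parp14 and Ly6a. The core of the interferon-stimulated response element was searched on both strands as GAAA, any 2 bases and GAAA. It was found for 21 of 37 genes, 56.8%, and for 1079 of 27025 symbols with a window, 3.99%. By outcome it was found for 6 of 11 genes that rose, 15 of 23 that did not pass and 0 of 3 that fell. These are matches of letters and show nothing about binding in these cells.

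The upstream parts of the windows of Ifit1 and Isg15, which rose, and of Ifi209 and Sp100, which fell, are shown because the first pair holds the element and the second does not. They were picked by call and element together, so they do not show that the element goes with the direction. Isg20, Oasl2, Ifi35, Xaf1 and Cmpk2 rose without a match in their windows. Capitals mark matches of either orientation, and the sequence is 5′ to 3′ on the gene's strand and ends at the annotated start.
Ifit1, chr19:34640639-34640888, plus strand: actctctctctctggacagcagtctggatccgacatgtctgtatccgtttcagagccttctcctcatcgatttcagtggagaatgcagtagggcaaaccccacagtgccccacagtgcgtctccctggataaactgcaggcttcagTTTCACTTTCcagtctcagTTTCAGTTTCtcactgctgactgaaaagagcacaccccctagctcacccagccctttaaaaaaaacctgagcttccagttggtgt
Isg15, chr4:156200819-156201068, minus strand: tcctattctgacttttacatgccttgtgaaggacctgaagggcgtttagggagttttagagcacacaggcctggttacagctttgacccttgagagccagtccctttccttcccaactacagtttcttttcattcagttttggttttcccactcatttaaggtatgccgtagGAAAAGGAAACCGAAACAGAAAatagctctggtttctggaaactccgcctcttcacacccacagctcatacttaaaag
Ifi209, chr1:173630609-173630858, plus strand: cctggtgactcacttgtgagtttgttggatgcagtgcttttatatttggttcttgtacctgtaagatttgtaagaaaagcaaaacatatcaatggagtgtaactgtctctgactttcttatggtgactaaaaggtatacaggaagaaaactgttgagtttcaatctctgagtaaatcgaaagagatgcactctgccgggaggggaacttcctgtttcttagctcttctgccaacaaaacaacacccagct
Sp100, chr1:85649738-85649987, plus strand: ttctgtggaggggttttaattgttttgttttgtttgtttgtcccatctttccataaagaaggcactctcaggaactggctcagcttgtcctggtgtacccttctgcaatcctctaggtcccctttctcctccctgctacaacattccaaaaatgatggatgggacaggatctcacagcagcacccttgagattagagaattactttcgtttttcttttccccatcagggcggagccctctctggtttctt

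The first match lies 104 bases upstream of the start in Ifit1 and 78 in Isg15. Isg15 carries 3 overlapping matches and Ifit1 carries 2 separate ones. Shorter stretches show the first match, joined to any that overlaps it, with 10 bases on each side. They are given for other genes that rose (Ifit3, Ifit3b, Bst2) and for genes whose level did not pass the test (Oas1a, Stat2, Rsad2, Rigi, Ifi206). Ifit3 and Ifit3b each hold 2 separate matches, of which only the first is shown. The match of Rigi lies just after the annotated start.
Ifit3, chr19:34583363-34583392, plus strand: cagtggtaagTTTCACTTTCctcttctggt
Ifit3b, chr19:34607759-34607788, plus strand: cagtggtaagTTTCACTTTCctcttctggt
Bst2, chr8:71537577-71537612, minus strand: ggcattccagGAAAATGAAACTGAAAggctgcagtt
Oas1a, chr5:120907520-120907555, minus strand: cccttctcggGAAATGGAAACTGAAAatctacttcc
Stat2, chr10:128270266-128270295, plus strand: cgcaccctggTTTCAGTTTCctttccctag
Rsad2, chr12:26456553-26456582, minus strand: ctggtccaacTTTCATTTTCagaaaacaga
Rigi, chr4:40239804-40239833, minus strand: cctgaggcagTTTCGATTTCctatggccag
Ifi206, chr1:173491339-173491368, minus strand: tgtctctgagGAAATCGAAAgctatgaacc

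Ifit3 and Ifit3b share the same 30 letters here. Rsad2 and Bst2 show that the element occurs on either strand. Having the element did not separate the genes that rose from those that did not pass, since 54.5% of the first and 65.2% of the second held it.

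The IFIT genes, whose proteins bind viral RNA ends, lie side by side on chromosome 19, and 3 of 4 rose. Ifit1 (ENSMUSG00000034459, mm39 chr19:34618271-34627409) stood at 25.1, 18.2 and 17.4 across the WT libraries, against 57.5 and 83.3 across those of Cebpa_KO. Both Cebpa_KO libraries lay above all WT libraries, at a mean 3.48 times higher (log2 fold change 1.74, SE 0.23, limma adjusted p = 0.0114). Ifit3 (ENSMUSG00000074896, mm39 chr19:34560931-34566131), a partner of Ifit1, stood at 32.8, 21.9 and 16.1 in WT, against 50.2 and 72.1 in Cebpa_KO (log2 fold change 1.37, SE 0.32, limma adjusted p = 0.0391), and Ifit3b (ENSMUSG00000062488, mm39 chr19:34585370-34590801), its near copy, at 9.35, 6.82 and 5.25 in WT, against 16.6 and 22.5 in Cebpa_KO (log2 fold change 1.35, SE 0.26, limma adjusted p = 0.0247). Cebpa_KO replicate 2 was the highest and WT replicate 3 the lowest library for Ifit1, Ifit3 and Ifit3b alike. Ifit3 and Ifit3b are similar enough that reads may be split between them. Both calls ended with no filter on low values, with the replicate block and without WT replicate 2. That of Ifit3 also ended in the assembled loci. Ifit2 (ENSMUSG00000045932, mm39 chr19:34528094-34553819), which lies next to Ifit3, stood at 20.01, 20.8 and 17.6 in WT, against 18.3 and 19.7 in Cebpa_KO. Its groups overlapped and its log2 fold change was -0.03, with a 95% interval of -0.32 to 0.26. The interval of Ifit2 lies below the intervals of Ifit1, 1.18 to 2.31, and of Ifit3, 0.57 to 2.18, although the difference between genes was not itself tested.

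Genes of the OAS family, which make the oligoadenylate that activates RNase L or are related to those that do, had 2 rises among 6 and no fall. Oasl2 (ENSMUSG00000029561, mm39 chr5:115034997-115050295) stood at 11.9, 10.4 and 10.5 across the WT libraries, against 25.5 and 25.7 across those of Cebpa_KO. The 2 Cebpa_KO libraries were nearly equal and far above WT, by a mean factor of 2.34 (log2 fold change 1.16, SE 0.11, limma adjusted p = 0.00684). Its neighbour Oasl1, which in mouse restrains translation of IRF7, stood at 12.8, 11.4 and 10.4 in WT, against 15.4 and 17.7 in Cebpa_KO and missed the threshold (log2 fold change 0.48, SE 0.14, limma adjusted p = 0.0626). Oas2 rose from 2.37 ± 0.186 to 4.51 ± 0.864 (SD, n = 3 and n = 2; limma adjusted p = 0.0409). Its call held in 7 of 16 alternatives, with adjusted p of 0.0289 to 0.226, and ended whichever library was left out. Oas3 stood at 11.8, 19 and 9.96 in WT, against 22 and 22.9 in Cebpa_KO (limma adjusted p = 0.111), with WT replicate 2 close to the Cebpa_KO libraries. Oas1a, at 114, 107 and 85.5 in WT, against 105 and 126 in Cebpa_KO, was the highest of the family in each library. Its groups overlapped (log2 fold change 0.18, 95% interval -0.21 to 0.57), as did those of Oas1g (log2 fold change 0.32). Oas1a and Oas1g are close paralogs whose reads may be shared.

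Among the cytosolic sensors of RNA, the helicases divided. Ifih1 (ENSMUSG00000026896, mm39 chr2:62426142-62476599), which encodes MDA5, the sensor of long double-stranded RNA, stood at 9.02, 11.3 and 8.61 across the WT libraries, against 16.8 and 17.8 across those of Cebpa_KO (log2 fold change 0.79, SE 0.15, limma adjusted p = 0.0245). Dhx58 (ENSMUSG00000017830, mm39 chr11:100585710-100595097), which encodes LGP2, a regulator of the other helicase sensors, stood at 42.4, 41.4 and 33.2 in WT, against 67 and 71.7 in Cebpa_KO (log2 fold change 0.82, SE 0.13, limma adjusted p = 0.0169). For Ifih1 and Dhx58 both Cebpa_KO libraries lay above all WT libraries. The Ifih1 call held in 11 of 17 alternatives. It ended with no filter, with the replicate block, in the assembled loci and without WT replicate 1. The Dhx58 call held in 13 of 17, and ended with no filter and without WT replicate 2. Both calls also ended without either Cebpa_KO library. Rigi (ENSMUSG00000040296, mm39 chr4:40203773-40239828), the sensor of short RNA with a terminal triphosphate, stood at 47.3, 47.6 and 46.7 in WT, against 44.6 and 50.4 in Cebpa_KO, with the groups overlapping. Its 95% interval, -0.22 to 0.23, does not reach the fitted rise of Ifih1, 0.79, or that of Dhx58, 0.82. Ddx60, a helicase linked to Rigi signalling, differed by 0.22 and did not pass. Zbp1, a sensor of Z-form nucleic acid that can trigger necroptosis, rose from 132 ± 15.6 to 192 ± 17.9 (SD, n = 3 and n = 2; log2 fold change 0.54, SE 0.13, limma adjusted p = 0.0405). The call for Zbp1 held in 6 of 17 alternatives, and its adjusted p over them ran from 0.0198 to 0.208; it ended without WT replicate 1 or 2 and without either Cebpa_KO library.

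Of the 4 PYHIN genes in the set, from a cluster on chromosome 1 that includes sensors of DNA, 1 fell and none rose. Ifi209 (ENSMUSG00000043263, mm39 chr1:173458483-173475494) stood at 224, 215 and 187 across the WT libraries, against 105 and 118 across those of Cebpa_KO. Both Cebpa_KO libraries lay below all WT libraries, at a mean 1.88 times lower, and it fell by the most of the 48 genes (log2 fold change -0.90, SE 0.11, limma adjusted p = 0.0104). Ifi203, at 60.02, 53 and 50.2 in WT, against 43.1 and 51.1 in Cebpa_KO, Ifi206, at 79.5, 69.1 and 72.3 in WT, against 72.2 and 91.7 in Cebpa_KO, and Ifi213, at 25.2, 17.8 and 16.1 in WT, against 17.2 and 28.5 in Cebpa_KO, had overlapping groups. Their log2 fold changes were -0.21, 0.14 and 0.19, and the reads of these related genes may be shared. The letters GAAATCGAAA stand in the RefSeq windows of Ifi206 and Ifi213 and in 1 of the 2 windows of Ifi203. In the window of Ifi209 the most similar stretch to the Ifi206 match and its flanks lies 79 bases upstream of the start and carries the substitution G1T, counted from the first base of the match. That stretch, at chr1:173630770-173630799 on the plus strand of GRCm38.p6 with the positions of the match in capitals, reads aatctctgagTAAATCGAAAgagatgcact.

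In the ISG15 pathway the modifier itself rose, and the other 4 genes did not pass. Isg15 (ENSMUSG00000035692, mm39 chr4:156283912-156285253), a ubiquitin-like protein that is attached to other proteins or secreted, stood at 97.1, 86 and 86.7 across the WT libraries, against 182 and 210.3 across those of Cebpa_KO, a mean 2.18 times higher (log2 fold change 1.11, SE 0.10, limma adjusted p = 0.00682). Usp18 (ENSMUSG00000030107, mm39 chr6:121222865-121247876), the protease that removes ISG15 and that also blocks signalling at IFNAR2, stood at 134, 114 and 125 in WT, against 120.5 and 143 in Cebpa_KO. Its groups overlapped, and its 95% interval of -0.21 to 0.37 lies below that of Isg15, 0.85 to 1.37. Herc6, the main ligase for ISG15 in mouse, stood at 10.8, 18.8 and 14.6 in WT, against 16.7 and 28.9 in Cebpa_KO and missed the threshold (limma adjusted p = 0.231). An unnamed gene model on the same strand overlaps Herc6 at a mean level of 31.9, well above Herc6 itself, so their reads may be mixed. Trim25, a ubiquitin ligase that acts on Rigi, differed by 0.08, and Trim30a, a ligase that restrains NF-kB signalling, by 0.34 (limma adjusted p = 0.0717). For Trim30a the groups did not overlap, at 52.2, 48 and 43.7 in WT, against 59.3 and 62.6 in Cebpa_KO.

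Bst2 had the smallest adjusted p of the set. It encodes tetherin, which holds budding virions at the cell surface. Bst2 (ENSMUSG00000046718, mm39 chr8:71986899-71990100) stood at 84.5, 88.7 and 83.2 across the WT libraries, against 199.7 and 217 across those of Cebpa_KO. The WT libraries differed little from each other and both Cebpa_KO libraries were far above each of them, at a mean 2.44 times higher (log2 fold change 1.28, SE 0.08, limma adjusted p = 0.00433). Bst2 is also a surface marker of mouse plasmacytoid dendritic cells, whose defining marker Siglech stood at 0.0206, 0.0195 and 0.0113 in WT, against 0.486 and 0.0402 in Cebpa_KO. Rtp4, which encodes a receptor transport protein, rose from 56.1 ± 16.4 to 117 ± 23.7 (SD, n = 3 and n = 2; log2 fold change 1.08, SE 0.27, limma adjusted p = 0.0467). The WT libraries of Rtp4 spread widely, from 40.5 in replicate 3 to 73.2 in replicate 1, and its call held in 8 of 17 alternatives, with adjusted p of 0.0214 to 0.218; it ended without WT replicate 2 and without either Cebpa_KO library.

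The MX GTPases, which block viral nucleocapsids, rose from low levels. Mx1 (ENSMUSG00000000386, mm39 chr16:97248235-97264107) stood at 8.68, 7.82 and 7.62 in WT, against 13.7 and 15.7 in Cebpa_KO (log2 fold change 0.80, SE 0.13, limma adjusted p = 0.0176), and Mx2 rose from 2.78 ± 0.296 to 5.02 ± 0.135 (SD, n = 3 and n = 2; limma adjusted p = 0.0328). The groups did not overlap for either. The Mx2 call held in 7 of 16 alternatives, with adjusted p of 0.0171 to 0.181, and ended without WT replicate 1 or 2 and without either Cebpa_KO library. Many laboratory strains carry defective Mx1, and which allele these mice had was not examined.

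Enzymes that act on nucleotides went in opposite directions. Cmpk2 (ENSMUSG00000020638, mm39 chr12:26519203-26529836), a mitochondrial nucleotide kinase, stood at 11.9, 10.8 and 9.65 across the WT libraries, against 21 and 24.2 across those of Cebpa_KO, a mean 2.09 times higher (log2 fold change 1.00, SE 0.14, limma adjusted p = 0.0122). Rsad2 (ENSMUSG00000020641, mm39 chr12:26492745-26506451), which encodes viperin, an enzyme that makes a chain-terminating nucleotide, lies next to Cmpk2 on the other strand and stood at 6.37, 4.86 and 4.63 in WT, against 9.31 and 8.22 in Cebpa_KO. Both Cebpa_KO libraries lay above WT for Rsad2, but it did not pass (log2 fold change 0.64, SE 0.17, limma adjusted p = 0.0548); it passed with array weights and without WT replicate 1. Samhd1 (ENSMUSG00000027639, mm39 chr2:156939453-156977185), which hydrolyses deoxynucleotides and is the highest of these 3, stood at 369.6, 343 and 355 across the WT libraries, against 237 and 279.7 across those of Cebpa_KO, with both Cebpa_KO libraries below WT (log2 fold change -0.46, SE 0.10, limma adjusted p = 0.0313). Its call held in 9 of 17 alternatives, with adjusted p of 0.0220 to 0.194, and also ended without WT replicate 1 or WT replicate 2.

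Of 5 genes that act on RNA, Isg20 rose and the others did not pass. Isg20 (ENSMUSG00000039236, mm39 chr7:78563172-78570144), an exonuclease that degrades RNA, stood at 175, 157 and 164 across the WT libraries, against 269 and 286 across those of Cebpa_KO, the highest level among the genes that rose (log2 fold change 0.74, SE 0.08, limma adjusted p = 0.00829). In the assembled loci no locus matched Isg20 in Cebpa_KO replicate 2, which was set to 0 there, and the log2 fold change was -3.35. Eif2ak2, the kinase PKR that halts translation on double-stranded RNA, stood at 17.5, 18.6 and 12.8 in WT, against 13.8 and 18.5 in Cebpa_KO with a 95% interval of -0.54 to 0.52. Adar, which converts adenosine to inosine in double-stranded RNA, stood at 25.4, 32.3 and 29.8 in WT, against 31.5 and 30.4 in Cebpa_KO with an interval of -0.23 to 0.40. Slfn5 and Slfn8, of the Schlafen family that includes regulators of T cell quiescence, differed by -0.10 and -0.20. For these 4 genes the groups overlapped.

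The genes of signalling and transcription in the set had 1 rise and 1 fall among 7, and 5 did not pass. Stat2, the STAT specific to type I and type III interferon signalling, stood at 46.9, 56.8 and 43.3 across the WT libraries, against 52.1 and 59.4 across those of Cebpa_KO. Its groups overlapped (log2 fold change 0.19, 95% interval -0.17 to 0.55). Ifi35, a leucine zipper protein that partners Nmi, rose from 142 ± 9.05 to 204 ± 11.8 (SD, n = 3 and n = 2; log2 fold change 0.52, SE 0.09, limma adjusted p = 0.0197). Sp100 (ENSMUSG00000026222, mm39 chr1:85577709-85637719), a component of nuclear bodies that restricts DNA viruses, stood at 287, 269.9 and 263 in WT, against 184 and 184 in Cebpa_KO (log2 fold change -0.57, SE 0.08, limma adjusted p = 0.0117). The Cebpa_KO libraries were nearly equal and below every WT library. Parp9 and Dtx3l, which form a complex that modifies histones, lie on opposite strands and overlap at their ends, where reads of either may be counted for the other. They differed by 0.21 and -0.05. Parp14 and Phf11b differed by -0.14 and 0.03. None of these 4 passed.

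Of the last 4 genes, which share only their induction by interferon, Ifi27l2a is described above and Xaf1 rose. Xaf1, an antagonist of the apoptosis inhibitor XIAP, stood at 47.8, 37 and 32.5 in WT, against 59.5 and 73.8 in Cebpa_KO (log2 fold change 0.76, SE 0.19, limma adjusted p = 0.0463), and the call ended in 11 of 17 alternatives. Ifi44 and Epsti1 differed by 0.22 and -0.06 and their groups overlapped.

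The 48 genes also varied together between pools of the same genotype. Cebpa_KO replicate 2 was above Cebpa_KO replicate 1 in 44 of the 48 genes, against 48% of all genes tested. WT replicate 3 was the lowest WT library in 34 of the 48, against 37.1% of all genes tested, and WT replicate 1 the highest in 32, against 35.7%. The median deviation of the 48 genes from their WT mean, on the log2 scale, was 0.11, 0.01 and -0.14 in WT replicates 1, 2 and 3 and 0.19 and 0.45 in Cebpa_KO replicates 1 and 2. Cebpa_KO replicate 1 was thus nearer to WT replicate 1 than to Cebpa_KO replicate 2 by this median. The summed level of the 17 genes that rose was 932, 830.2 and 770.4 in WT, against 1463 and 1681 in Cebpa_KO. Of RNA of other cells, 5 B cell markers summed to 75.4, 65.7 and 112 in WT, against 222 and 48.6 in Cebpa_KO, so that Cebpa_KO replicate 2 had the lowest sum, and the sums of the erythroid and neutrophil markers given above were also lower in Cebpa_KO replicate 2 than in replicate 1. Cebpa_KO replicate 1 had the highest sum of the B cell, erythroid and neutrophil markers. The 5 monocyte and macrophage markers summed to 85.1, 59.3 and 107 in WT, against 120 and 47.9 in Cebpa_KO. The 5 conventional dendritic cell markers went the other way, at 3.11, 3.54 and 6.25 in WT, against 5.65 and 7.12 in Cebpa_KO. Of these 5, 4 were under 1 in every library. The part of any of these cells in the interferon set was not tested. WT replicate 3 lay near the Cebpa_KO libraries in the stress list and had the lowest median of all libraries in the interferon set. Any link between the lists was not tested.

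**Figure D3:**
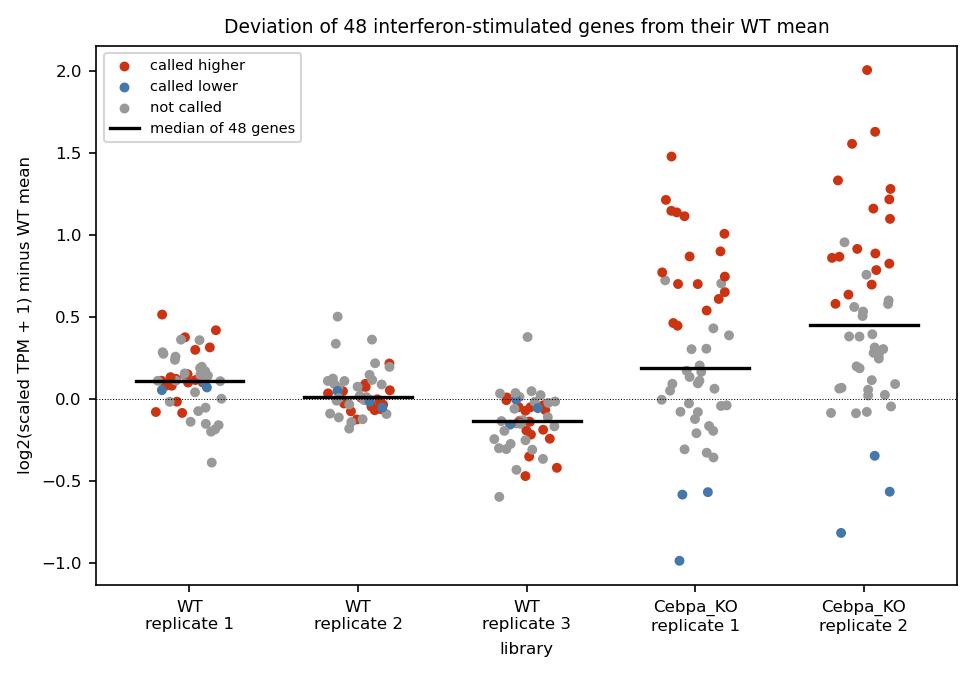
Deviation of each of the 48 genes from its own WT mean on log2(scaled TPM + 1) (vertical axis) in each of the 5 libraries (horizontal axis); points are genes, coloured by the call, and black bars are the median of the 48. The WT medians are 0.11, 0.01 and -0.14, lowest in replicate 3, and the Cebpa_KO medians are 0.19 and 0.45.

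Upstream of the set, the 4 chains of the type I and type II interferon receptors fell. Ifnar1, the chain that binds TYK2, stood at 129, 131 and 141 across the WT libraries, against 71 and 76.9 across those of Cebpa_KO (log2 fold change -0.85, SE 0.08, limma adjusted p = 0.00684). Ifnar2, the chain that binds JAK1, stood at 171, 141 and 127 in WT, against 93.3 and 83.9 in Cebpa_KO (log2 fold change -0.71, SE 0.15, limma adjusted p = 0.0293). Ifngr1 and Ifngr2, the receptor chains of interferon gamma, fell by 0.89 and 0.73 in log2 units (limma adjusted p = 0.0194 and 0.0222). For the 4 chains both Cebpa_KO libraries lay below all WT libraries, a pattern seen in 28% of all genes tested. Without WT replicate 2 the calls of Ifngr1, Ifngr2 and Ifnar2 ended, and that of Ifngr1 also ended without WT replicate 1. Ifnar2 did not pass in the assembled loci (limma adjusted p = 0.298), where no locus matched it in WT replicates 1 and 2. Of the 13 genes in the list of receptors, kinases, STAT and IRF factors, these 4 fell and none rose, with a median of -0.26, against 9.82% of all genes that fell. Without WT replicate 2, 1 of the list fell, beside 2.44% of all genes, and with no filter 2 did, beside 1.64%. Without either Cebpa_KO library none did.

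The kinases and Irf9 did not pass, although Jak1 and Tyk2 did so with array weights and without WT replicate 1. Jak1 stood at 314, 365 and 412 in WT, against 276 and 279 in Cebpa_KO and Tyk2 at 53.5, 73.4 and 81 in WT, against 40.9 and 49.6 in Cebpa_KO (limma adjusted p = 0.0930 and 0.0954), both lower in each Cebpa_KO library than in any WT library. Irf9 stood at 80.3, 74 and 71.1 in WT, against 72.6 and 80.5 in Cebpa_KO, with a 95% interval of -0.21 to 0.26. Irf7, the factor that amplifies interferon alpha transcription and is itself interferon-stimulated, stood at 112, 80.2 and 74.1 in WT, against 125 and 176 in Cebpa_KO and missed the threshold (log2 fold change 0.76, SE 0.23, limma adjusted p = 0.0729), with Cebpa_KO replicate 2 highest and WT replicate 3 lowest as in the IFIT genes. Irf1 differed by -0.26, Irf3 by -0.16, Irf5 by -0.10 and Jak2 by -0.23.

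Of 11 listed inhibitors of interferon signalling, 3 rose and none fell, beside 9.93% and 9.82% of all genes, with a median of 0.47. Socs1, which blocks JAK kinases and is induced by the cytokines it restrains, stood at 32, 31.9 and 34.3 across the WT libraries, against 60.5 and 56.1 across those of Cebpa_KO (log2 fold change 0.81, SE 0.09, limma adjusted p = 0.00772). Ptpn1, a phosphatase of JAK2 and TYK2, stood at 219, 209 and 184 in WT, against 368 and 360.1 in Cebpa_KO (log2 fold change 0.84, SE 0.10, limma adjusted p = 0.00941). Socs3, an inhibitor that acts mainly on gp130 receptors, stood at 41.9, 47.3 and 66.2 in WT, against 92.4 and 87.2 in Cebpa_KO (log2 fold change 0.81, SE 0.20, limma adjusted p = 0.0459), with WT replicate 3 between the groups. With either Cebpa_KO library left out none of the 3 passed. The Socs3 call also ended without WT replicate 1 or 2.

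**Figure D4:**
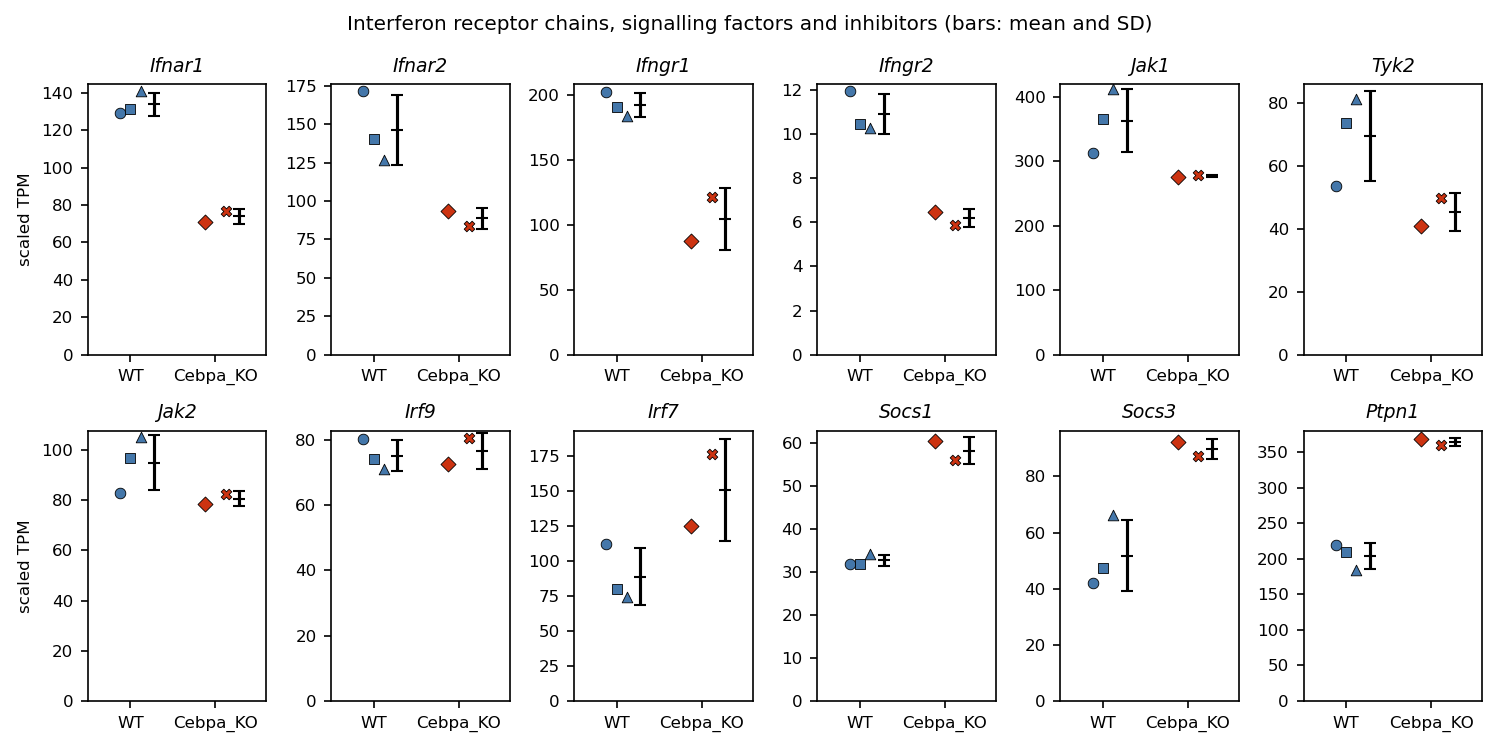
Scaled TPM (vertical axes, from 0) of interferon receptor chains, signalling factors and inhibitors in the 3 WT (blue) and 2 Cebpa_KO (red) libraries, 1 panel per gene; points are libraries and the black mark and bar give the mean and SD. Ifnar1 goes from 134 ± 6.11 to 73.9 ± 4.12 and Socs1 from 32.7 ± 1.37 to 58.3 ± 3.06, while the points of the groups overlap for Irf9.

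Transcripts of the interferons themselves were near or at 0 except for Ifng. Ifna1, Ifna2 and Ifna4 were listed at 0 in all 3 WT libraries. They stood at 0.625, 0.673 and 0.897 in Cebpa_KO replicate 1 and at 0.915, 1.41 and 0.994 in Cebpa_KO replicate 2. Of these 3 only Ifna2 in Cebpa_KO replicate 2 was above 1, so none entered the test. With no filter Ifna1 and Ifna4 passed (limma adjusted p = 0.0316 and 0.0105) and Ifna2 did not (0.0737), and related interferon alpha genes may share reads. At 0 in every WT library, WT added no spread to these fits. Ifnl3 passed there too (limma adjusted p = 0.0105), at 0.115 and 0.112 in Cebpa_KO and at most 0.000337 in WT. A pass in that fit can thus come at a level near 0. Of 13 interferon alpha genes, a family taken by symbol after its values were seen, 4 were at 0 in all WT libraries and above 0 in both Cebpa_KO libraries. The share of all annotated genes with this pattern was not counted, so nothing is concluded from the 4. The sum over all 13 was 0, 0, 0.229, 2.37 and 3.57 in the 5 libraries in the order above. Ifnb1 was at most 0.158 in any library. Ifng stood at 3.02, 1.95 and 14 in WT, against 21.4 and 35.1 in Cebpa_KO, with WT replicate 3 between the groups, and missed the threshold (log2 fold change 2.34, SE 0.72, limma adjusted p = 0.0765); it passed without WT replicate 3 (limma adjusted p = 0.00816), with array weights (0.0179) and with the replicate block, which in effect drops WT replicate 3 (0.026). The 6 listed markers of plasmacytoid dendritic cells summed to 42.6, 40.7 and 61.7 in WT, against 94.6 and 61.8 in Cebpa_KO, mostly from Irf8, which T and B cells also express. Siglech and Klk1 were highest in Cebpa_KO replicate 1, at 0.486 and 1.26, and the part of these cells in the interferon alpha values was not tested.

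In the sensing pathway 1 of 13 tested genes of 15 listed fell and none rose, a share close to the 9.82% of all genes. The 1 was Ikbke, a kinase that activates IRF3 and IRF7, at 134, 143 and 161 in WT, against 57.5 and 93.7 in Cebpa_KO (limma adjusted p = 0.0348; the call ended whichever of the 5 libraries was left out). Tlr7, the receptor of imiquimod, stood at 6.75, 5.01 and 4.19 in WT, against 4.82 and 4.36 in Cebpa_KO, with groups that overlapped.

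A second list of 49 interferon-responsive genes lies outside the set. Of 47 tested, 8 rose and 2 fell, beside 9.93% and 9.82% of all genes, with a median of 0.10, so the share that fell was below that of all genes. Without WT replicate 2, 1 rose and none fell, beside 2.74% and 2.44% of all genes. With no filter 3 rose and none fell, beside 2.43% and 1.64%, and without either Cebpa_KO library none passed. The smallest p among the rises was that of Ifi204, another PYHIN gene, at 3.89, 2.18 and 2.98 in WT, against 15.4 and 15.9 in Cebpa_KO (log2 fold change 2.07, SE 0.21, limma adjusted p = 0.00719). Lgals3bp, a secreted glycoprotein, stood at 213, 186 and 158 in WT, against 353 and 391 in Cebpa_KO (log2 fold change 1.01, SE 0.14, limma adjusted p = 0.0128). Ogfr, a receptor for opioid growth factor, and Ifitm2, a membrane protein that limits virus entry, rose by 0.53 and 0.75 (limma adjusted p = 0.0146 and 0.0200). The falls, named after their values were seen, were Ifi208, also of the PYHIN cluster, by 0.58, and Shisa5, by 0.74 in log2 units (limma adjusted p = 0.0262 and 0.0414). Both calls ended without WT replicate 1 and without WT replicate 2, and that of Shisa5 also without WT replicate 3.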

How the data were processed

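RNA of sorted Tfr cells from 3 WT and 2 Cebpa_KO pools was made into low-input SMART-Seq v4 and Nextera XT libraries, per the labels' protocols. STAR 2.7.11b, StringTie 2.1.3b and the build mm39 appear in the submitters' processing notes. No source used here gives the annotation release or whether counting used strand. The deposited TPM column is treated as a score: assembled loci in it total 1000000 per library, and rows of annotated genes repeat 96.7% to 97.6% of that. The annotated rows were used. FPKM and coverage, a signal per base, were deposited by the authors and served only to obtain depth from their ratio. Without read counts, no counting interval or detection floor is given.

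Each library was scaled by its median ratio to the per-gene geometric mean (factors 0.984 to 1.04). Genes with a TPM of 1 or more in 2 or more libraries were tested on log2(level + 1) with limma 3.58.1 under R 4.3.3 (intensity trend, Benjamini-Hochberg, threshold 0.05). In a simulation of Cebpa_KO against WT with 15677 genes, 60 of 100 genes shifted by 1 log2 unit were called, as were 87 of 100 shifted by 2, with 7 false calls. Genes of low WT level were not shifted, and far fewer genes changed than were called in the data. These rates therefore may not hold for the data or for low genes such as Oas2 and Mx2. Assembled loci carry no gene names and were matched to genes by position. The members and the other lists were chosen with earlier results of these data known. Named genes are all 48 members, Cebpa, the receptor and factor genes and some of the ligand genes. In each other pathway list they are up to 4 genes past the threshold with the smallest p. The ligand genes not named were under 1 in every library. Tlr7, Ifi208, Shisa5, Ifnl3 and the whole interferon alpha family were added after their values were seen. Alternatives changed the pseudocount (0.1 or 5), the filter (none, or a TPM of 5), the scaling (none, or quantile), the variance model (array weights, untrended, robust), the block by replicate number, the rows (assembled loci) and the libraries (each left out, or WT replicate 3 alone as WT). No covariate for sex or Foxp3 allele could be fitted, because both follow the genotype. One gene of the pathway lists is not reported here by name, and it stays in the counts.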

Additional observations from a re-analysis of the deposited data

How the results depend on the processing

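The 20 calls among the 48 genes all held with pseudocounts of 0.1 and 5, with robust estimation and with array weights, which added Oasl1, Rsad2 and Trim30a. The 17 rises became 6 with no filter, 7 with the replicate block and 11 in the assembled loci, and leaving out 1 library gave 0 to 15 rises and 0 to 3 falls. The median log2 fold change of 0.33 became 0.19 to 0.46 with 1 library left out, and 0.51 when WT was replicate 3 alone. That last fit takes its spread from the 2 Cebpa_KO libraries and uses the WT library lowest in 34 of the 48 genes, so its calls are not described. It is still 1 of the alternatives in the counts and adjusted p ranges given for single genes. Whether libraries of the same replicate number belong together is not settled here. Their deviations from the group means correlated at -0.18 for number 1 and 0.27 for number 2. With 2 Cebpa_KO libraries those deviations mirror each other, so the correlations cannot decide it. The block leaves WT replicate 3 without a partner and kept 9 of the 20 calls. Log2 fold changes that changed sign were, in the assembled loci, Isg20 -3.35, which had no matched locus in Cebpa_KO replicate 2, Ifit2 0.41, Oas1g -0.19 and Slfn8 0.19. They were Phf11b -0.0364 with quantile normalization, and Rigi -0.00098, Phf11b -0.0644 and Slfn5 0.0939 with the block. Against WT replicate 3 alone they were Ifit2 0.10, Dtx3l 0.0048, Eif2ak2 0.29 and Epsti1 0.24. With 1 library left out the sign changed for 13 genes, none of them called, with ranges of Ifit2 -0.0985 to 0.0268, Usp18 -0.0378 to 0.204, Ifi44 -0.00295 to 0.396, Rigi -0.0755 to 0.0964, Ifi206 -0.0225 to 0.320, Ifi213 -0.160 to 0.539, Dtx3l -0.118 to 0.0302, Eif2ak2 -0.204 to 0.192, Trim25 -0.000611 to 0.132, Epsti1 -0.212 to 0.0361, Phf11b -0.0686 to 0.131, Slfn5 -0.303 to 0.120, Adar -0.00492 to 0.160. The cause of these changes, other than that of Isg20, was not tested. Read depth per gene is unknown, so low genes such as Oas2 and Mx2 carry no counting interval.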
